A study of Mus musculus with 8 samples.

Results

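The nuclear genes for the last steps of oxidative phosphorylation were examined in mouse kidney: subunits of complex III (ubiquinol-cytochrome c reductase), cytochrome c and complex IV (cytochrome c oxidase), and subunits of ATP synthase. They were taken by gene symbol, as protein-coding genes named Uqcr, Atp5 or Cox4 to Cox8, with Cyc1 and Cycs. The rule found 45 of the 30153 rows of the expression table: 10 for complex III and cytochrome c, 18 for complex IV and 17 for ATP synthase. It left out 7 rows of processed pseudogenes with such names. The rule itself uses no measured value, but the genes were chosen with earlier results of these data known. The 8 kidneys came from C57/BL6 mice that all carried Haplotype-II of the gene for the human angiotensin receptor type 1 and were all on a western diet. The groups were 4 adult and 4 aged animals, each giving 1 library, and the design text states that these were separate animals. The labels give no ages in months and no sex. Since the table lists mouse genes alone, the human transgene could not be read from it, and the promoter that drives it is not given in the sources used here.

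Complex III takes electrons from ubiquinol and hands them to cytochrome c, a small soluble carrier between the mitochondrial membranes. Complex IV passes them on to oxygen, and both complexes pump protons that ATP synthase lets back through to make ATP. Kidney tubules, the proximal tubule above all, depend on this chain to power the reabsorption of salt and solutes. Each complex is built from nuclear and mitochondrial gene products, and several complex IV subunits have a second gene that is used mainly in heart, skeletal muscle, lung, testis or brown fat.

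Values are TPM, a level per transcript length on a fixed total per library, so the read depth is unknown and no counting error could be given. Proximal tubule markers summed to between 3437 and 12279 TPM in the 8 libraries, so the labelled tissue was present throughout. The 13 mitochondrial protein-coding genes held 19.6% to 26.1% of the TPM scale in adult and 26.8% to 46.9% in aged libraries. Libraries also fell apart by 4 Y-linked genes, whose sum was 0.485 to 2.30 TPM in replicates 1 and 2 of both groups and 34.7 to 50.6 TPM in replicates 3 and 4. Library values always run from replicate 1 to replicate 4.

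Transcripts of these genes were abundant, and no member passed the test between aged and adult kidneys. The 45 members together held 3.70%, 5.05%, 4.43% and 3.54% of the TPM scale in the adult libraries and 3.78%, 3.46%, 2.86% and 2.85% in the aged ones. Adult replicate 2 was the highest and aged replicates 3 and 4 the lowest, and the groups overlapped. Of the 45, 42 had a mean of at least 1 TPM and were tested. Cox7b2, a form of subunit 7b known from testis, was listed at 0 in all libraries. Cox8c, another testis form, was above 0 only in aged replicate 1 (0.348 TPM), and Cox4i2, the lung form of subunit 4, lay between 0.206 and 1.28 TPM.

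Across 11796 genes, limma on log2(TPM + 1) with Benjamini-Hochberg adjustment called 0 genes at 0.05 (0.0%), and 400 (3.39%) had an unadjusted p under 0.05. Every member had an adjusted p of 1.00. By the unadjusted p, 7 of the 42 members were under 0.05, and all 7 were lower in aged kidneys, which is 16.7% of the members against 2.76% of all genes tested. The 7 were Uqcrq, Uqcr11, Cyc1, Cox6a2, Cox8a, Cox5a and Atp5g3. With size factors 3 members were under 0.05 (7.14%, beside 6.92% of all genes tested in either direction and 3.76% lower in aged). With quantile normalization it was 1 (2.38%, beside 6.4% and 3.31%), as it was with the mitochondrial genes removed (beside 4.37% and 0.82%). With 1 library left out the count ran from 2 (without adult replicate 2 or aged replicate 4) to 9 (without aged replicate 1 or 2). It was 3 without aged replicate 3. With the Y-linked class as a covariate it was 11 (26.2%, beside 8.46% of all genes tested in either direction and 7.21% lower in aged).

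Most members were lower in the aged group, by a small amount. Of the 42 tested, 39 (92.9%) had a negative log2 fold change, with a median of -0.38, beside 65.0% and a median of -0.11 over all genes tested. Abundant genes as a whole had the same sign. Of the 825 genes with a mean of at least 100 TPM, 89.1% were lower in aged kidneys with a median of -0.31, and of the 36 members at that level 35 (97.2%) were lower with a median of -0.37. Counting only those with an unadjusted p under 0.05 as well, it was 9.21% of these 825 genes and 16.7% of these 36 members. Within libraries of like Y-linked level, the members' median was -0.32 in replicates 1 and 2 and -0.41 in replicates 3 and 4. In whole kidney, fewer cells of a type and less RNA per cell cannot be told apart.

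**Figure D1:**
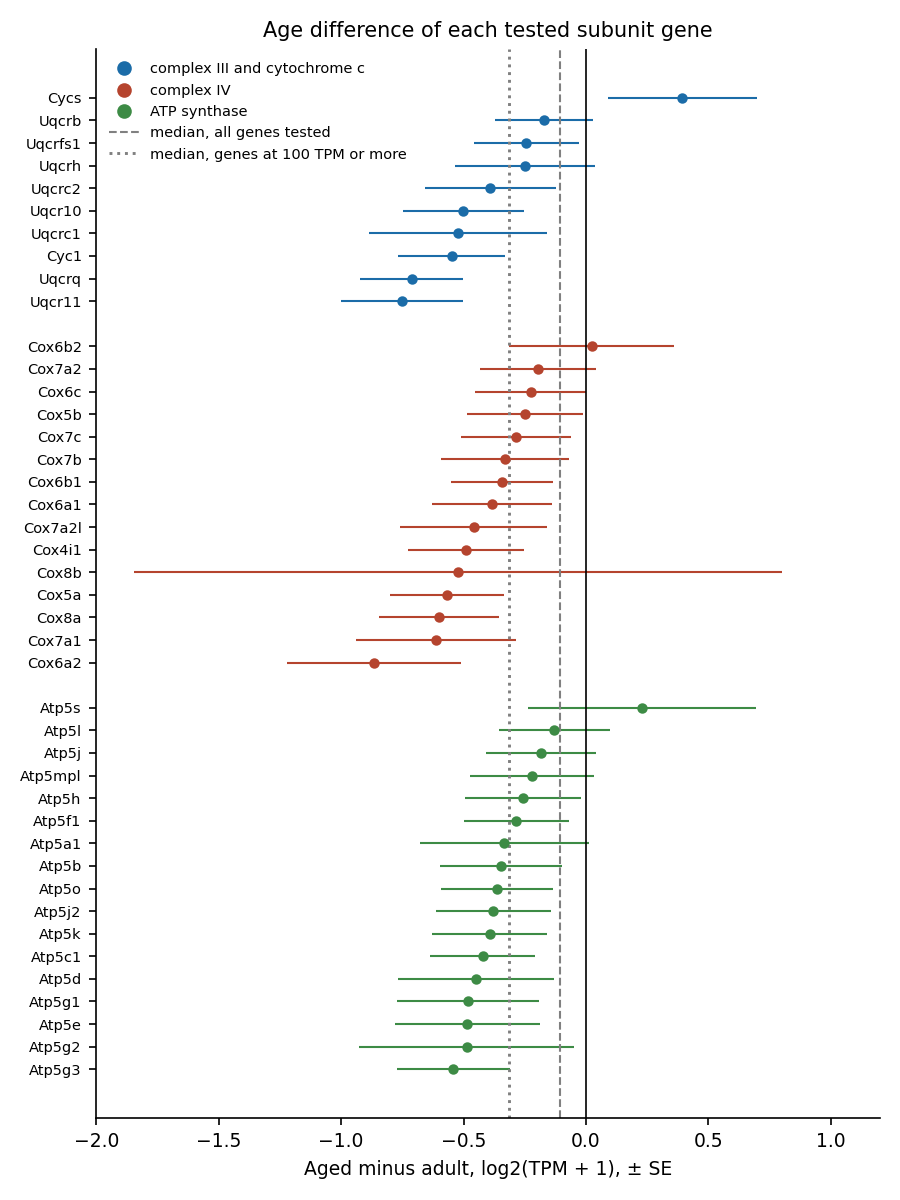
Difference between aged and adult kidneys in log2(TPM + 1) with its standard error (n = 4 libraries per group) for each of the 42 tested members, grouped by complex. The dashed line is the median of all 11796 genes tested (-0.11) and the dotted line that of the 825 genes at 100 TPM or more (-0.31). Points for 39 members lie left of 0, around the dotted line.

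The size of the difference depended on the scaling of the libraries. Size factors, which ranged from 0.681 to 1.48, left 39 members lower with a median of -0.26 while the median of all genes moved to -0.0072. Without the mitochondrially encoded genes, 27 of 42 members were lower with a median of -0.092, and the median of all genes was 0.14. Quantile normalization left 25 lower with a median of -0.037 beside 0.0080 for all genes. Relative to the median of all genes, the members thus lay at -0.27 as deposited, -0.26 with size factors and -0.23 without mitochondrial genes. They lay at -0.20 with the trend with transcript length removed and at -0.045 with quantile normalization. Among genes at 100 TPM or more, as deposited, the members lay at -0.057 from the median of those genes. In all 24 alternative fits 0 members passed the adjusted threshold, and 22 of the 42 were lower in every fit that tested them.

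Of the 7 members just named, Uqcrq, Uqcr11 and Cyc1 belong to complex III. Uqcrq, the small subunit that sits next to cytochrome b (chr11:53427922-53430831 of GRCm38), was measured at 568, 739, 666 and 638 TPM in the adult and 465, 328, 368 and 439.7 TPM in the aged group. All aged libraries lay below all adult ones, with a log2 fold change of -0.71 (SE 0.21, n = 4 per group, limma adjusted p = 1.00). Uqcr11, the smallest subunit of the complex (chr10:80402997-80406830), stood at 1209, 1604, 1309 and 1164 TPM in the adult and 1055, 910.0, 537 and 712 TPM in the aged group. These groups did not overlap either, and the log2 fold change was -0.75 (SE 0.25, limma adjusted p = 1.00).

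Cyc1 encodes cytochrome c1, the heme subunit that gives the electron to cytochrome c (chr15:76343523-76346260). It read 221, 253, 167 and 187 TPM in the adult and 148, 149, 125 and 138 TPM in the aged group, again without overlap (log2 fold change -0.55, SE 0.22, limma adjusted p = 1.00). Aged values were close together, with an SD of 10.8 TPM against 38.2 in adults. The other redox centre encoded in the nucleus, the Rieske iron-sulfur protein gene Uqcrfs1, averaged 362 ± 47.1 TPM in the adult and 306 ± 48.1 TPM in the aged group (SD, n = 4). The core proteins, which face the matrix, averaged 118 ± 50.8 and 80.9 ± 34.2 TPM for Uqcrc1 and 308 ± 66.0 and 239 ± 72.9 TPM for Uqcrc2. All of these ranges overlapped between the groups.

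The most abundant member of all was Uqcrh, the acidic hinge protein that helps cytochrome c1 meet cytochrome c. Its adult values of 1878, 3818, 4084 and 2462 TPM enclosed its aged values of 3258, 2550.5, 2227 and 1955 TPM (log2 fold change -0.25, SE 0.29; -0.086 without adult replicate 3 and -0.46 without adult replicate 1). Adult replicate 1 was its lowest library. Uqcr10, another small subunit, gave 1187, 1922, 2177 and 1589 TPM in the adult and 1529, 1181, 1007 and 1081 TPM in the aged group. Again adult replicate 1 lay among the aged values, and the log2 fold change was -0.50 (SE 0.25, limma adjusted p = 1.00). Uqcrb, a small subunit near the ubiquinone site, averaged 944 ± 145 TPM in the adult and 832 ± 55.0 TPM in the aged group (SD, n = 4). Over the complex III and cytochrome c genes, 9 of 10 were lower in aged kidneys with a median of -0.45.

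Cycs, the somatic cytochrome c gene (chr6:50562563-50566538), was the one abundant member with a higher aged mean. It read 60.9, 91.5, 115 and 88.0 TPM in the adult and 72.8, 98.4, 150.2 and 158 TPM in the aged group (log2 fold change 0.39, SE 0.30, limma adjusted p = 1.00). Aged replicates 3 and 4 were the highest of all, while aged replicate 1 lay below 3 of the adult libraries. Its value is uncertain, since 29.2% of the 31-base words of its transcripts also occur in other genes, Gm10053 above all. Gm10053 itself was listed higher than Cycs, at 329, 561, 690.5 and 586 TPM in the adult and 320.5, 389.9, 524 and 614 TPM in the aged group. The sum of Cycs and Gm10053 averaged 631 ± 174 TPM in the adult and 582 ± 172 TPM in the aged group (SD, n = 4), so the higher aged mean of Cycs was not present in the sum.

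**Figure D2:**
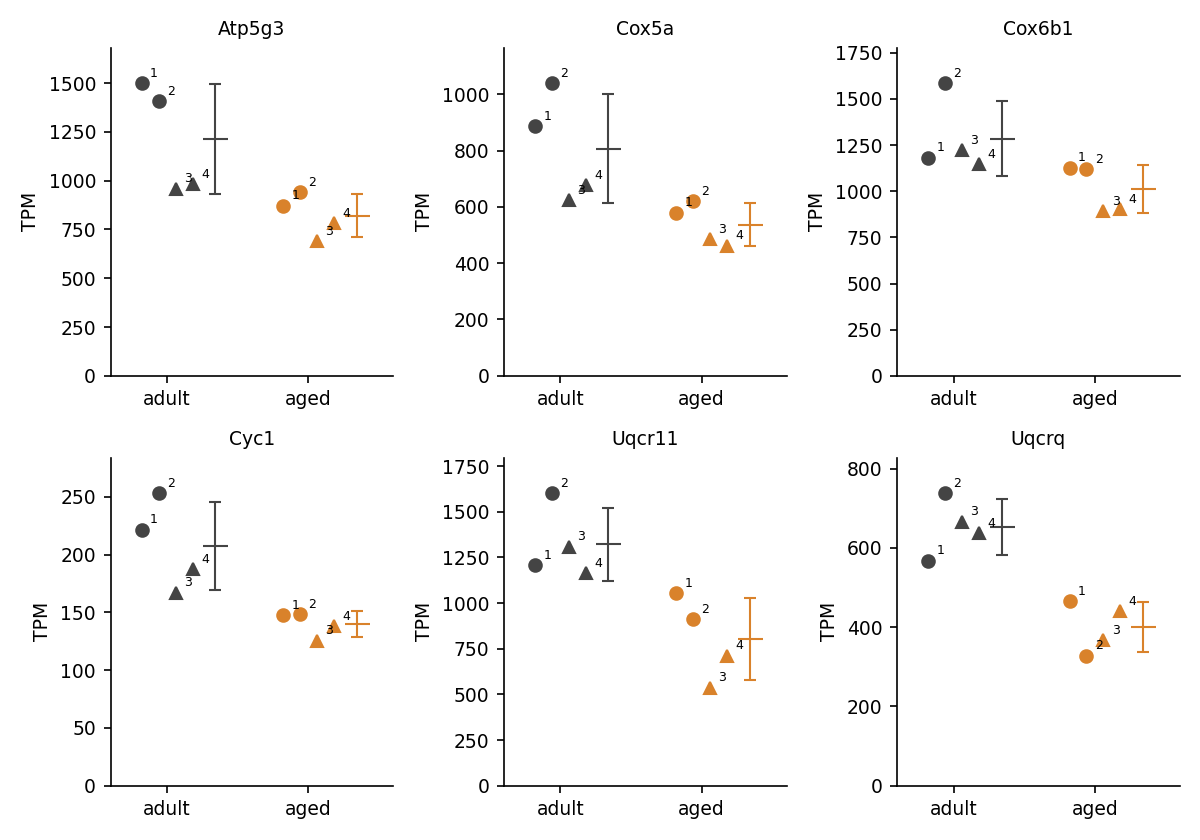
TPM of the 6 members whose adult and aged libraries did not overlap, with the replicate number beside each point (n = 4 per group). Circles are libraries with Y-linked genes under 10 TPM, triangles those above, and bars are the mean ± SD. Every aged point lies below every adult point, and for Cyc1 the nearest pair is 149 and 167 TPM.

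Complete separation of the groups was seen for 6 of 42 members as deposited (14.3%, beside 2.46% of all genes tested, or 2.11% with the aged group lower): Uqcrq, Uqcr11, Cyc1, Cox5a, Cox6b1 and Atp5g3. Among genes at 100 TPM or more, aged libraries were all below adult ones for 8.12% of genes and for 16.7% of the members. Which members separated changed with the scaling. With size factors they were Atp5d, Atp5g1, Atp5g3, Cox6a1, Cox8a and Uqcrc2, so that 1 gene, Atp5g3, was shared with the values as deposited. At that scaling 5.03% of all genes tested did not overlap, or 2.38% with the aged group lower. Without the mitochondrial genes only Uqcrq remained apart. That is 2.38% of the members beside 3.49% of all genes tested, or 0.544% with the aged group lower.

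In complex IV the largest transcripts by level were Cox4i1, Cox6c and Cox7c. Cox4i1, the regulatory subunit that binds adenine nucleotides (chr8:120668222-120674207), gave 2274, 3129, 2553 and 2078 TPM in the adult and 2282, 2047, 1466 and 1415 TPM in the aged group. Aged replicates 3 and 4 were the lowest, but aged replicate 1 lay within the adult range (log2 fold change -0.49, SE 0.24, limma adjusted p = 1.00). Cox6c, a small membrane subunit, stood at 1890.2, 2896, 2879 and 2245 TPM in the adult and 2606, 2191, 1878 and 1762 TPM in the aged group (log2 fold change -0.23, SE 0.23). Cox7c, another, was at 1359, 2110.1, 2339 and 1770.5 TPM in the adult and 1797, 1476, 1423 and 1423 TPM in the aged group (log2 fold change -0.29, SE 0.23). For both the groups overlapped.

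Cox5a, which lies on the matrix side (chr9:57521274-57532426), was at 887, 1040.4, 625 and 677 TPM in the adult and 579.9, 620.0, 486 and 462 TPM in the aged group. Aged replicate 2 came close to adult replicate 3 without crossing it (log2 fold change -0.57, SE 0.23, limma adjusted p = 1.00). Cox6b1, which faces the intermembrane space, gave 1182, 1587, 1224 and 1146 TPM in the adult and 1128, 1120.3, 891 and 905 TPM in the aged group, also without overlap, with a log2 fold change of -0.34 (SE 0.21, limma adjusted p = 1.00). Cox7b is the X-linked member, and it averaged 1133 ± 320.1 TPM in the adult and 890.4 ± 209.6 TPM in the aged group (SD, n = 4). Cox5b and Cox7a2l, the latter a factor that joins complexes III and IV rather than a core subunit, had log2 fold changes of -0.25 and -0.46. Of the 15 complex IV members tested, 14 were lower in aged kidneys, with a median of -0.38.

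**Figure D3:**
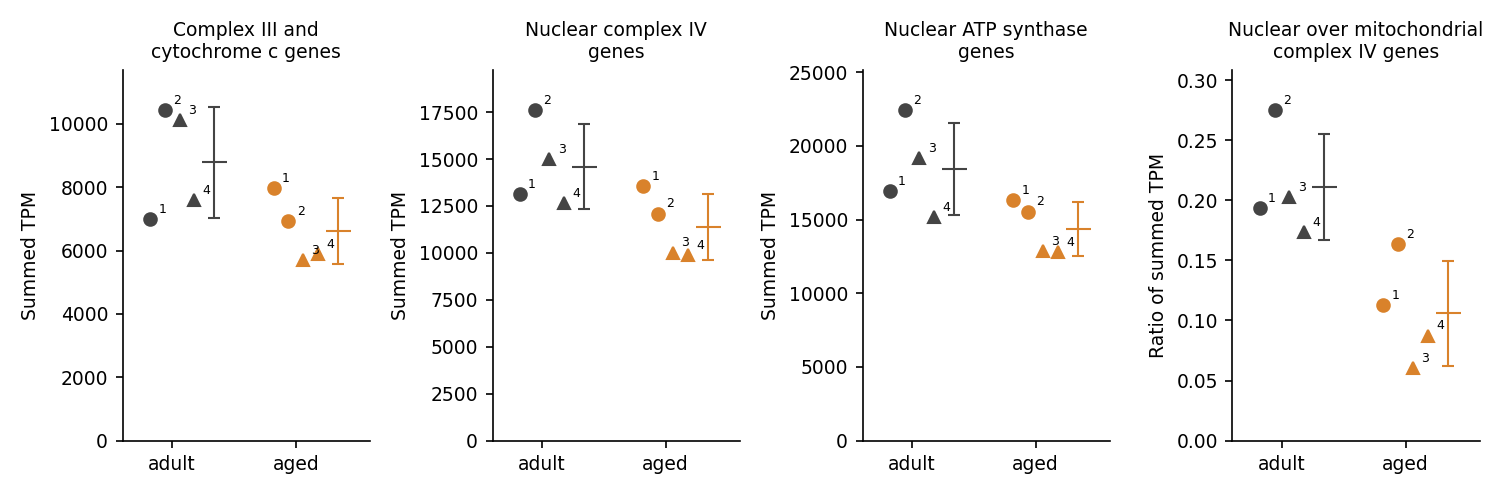
Summed TPM per library for the genes of complex III with cytochrome c, the nuclear genes of complex IV and of ATP synthase, and the ratio of nuclear to mitochondrially encoded complex IV genes (n = 4 per group, numbers are replicates, bars are mean ± SD, circles and triangles as set by Y-linked genes). The 3 sums overlap between the groups, with adult replicate 2 highest. The ratio runs from 0.174 to 0.275 in adult and from 0.0601 to 0.163 in aged libraries.

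Complex IV also has mitochondrially encoded catalytic subunits, and their log2 fold changes were positive, although none passed the test. The nuclear complex IV genes summed to 13148, 17614, 14988 and 12639 TPM in the adult and 13537, 12096, 10009 and 9888 TPM in the aged group. The 3 mitochondrial ones, mt-Co1, mt-Co2 and mt-Co3, summed to 67982, 64024, 73963 and 72845 TPM in the adult and 120018, 74079, 166584 and 113068 TPM in the aged group. The ratio of the nuclear to the mitochondrial sum was 0.193, 0.275, 0.203 and 0.174 in adult and 0.113, 0.163, 0.0601 and 0.0875 in aged libraries. Adult and aged ratios did not overlap. They are given without a test, because the mitochondrial share was known to differ when the ratio was chosen. All 6 mitochondrially encoded subunits of complexes III and IV and ATP synthase had positive log2 fold changes (median 0.82), and none passed the adjusted threshold. Libraries were made from polyadenylated RNA, and the capture of mitochondrial transcripts by that step was not tested.

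The general isoforms of complex IV made the larger part of every pair in every library, and the second forms of subunits 7a and 8 reached the highest shares. Cox7a1, the heart and muscle form of subunit 7a, gave 111, 203, 153 and 140.2 TPM in the adult and 164, 113, 80.2 and 58.5 TPM in the aged group (log2 fold change -0.61, SE 0.33, limma adjusted p = 1.00). Its liver-type partner Cox7a2 gave 953, 1592, 1669.5 and 1167 TPM and 1335, 1058, 1207 and 1009 TPM. Cox7a1 thus made 10.4, 11.3, 8.39 and 10.7 percent of the pair in adult and 10.9, 9.68, 6.23 and 5.48 percent in aged libraries. Aged replicates 3 and 4 had the lowest shares and aged replicate 1 lay among the adults. The mean share was 10.2% in adult and 8.08% in aged kidneys (exact two-sided permutation p = 0.229, 0.686 adjusted over 8 shares, n = 4 per group). The difference of -2.13 percentage points was -1.27 without aged replicate 4 and -3.08 without aged replicate 1.

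Cox6a2, the heart and muscle form of subunit 6a, was at 2.45, 8.08, 8.52 and 8.43 TPM in the adult and 2.79, 3.14, 3.81 and 2.38 TPM in the aged group (log2 fold change -0.87, SE 0.35, limma adjusted p = 1.00). Adult replicates 2, 3 and 4 were high and adult replicate 1 lay with the aged libraries. Its partner Cox6a1 read 1264, 1085, 733 and 965 TPM and 791, 911, 564 and 824 TPM, so the share of Cox6a2 averaged 0.737% in adult and 0.414% in aged kidneys (exact two-sided permutation p = 0.229, 0.686 adjusted). Cox6b2, the testis form of subunit 6b, gave 18.6, 15.2, 7.45 and 11.2 TPM in the adult and 13.8, 19.999, 9.76 and 9.38 TPM in the aged group, a log2 fold change of 0.023 (SE 0.34) and a mean share of 1.02% and 1.27%. Cox4i2 made 0.0212% and 0.0324% of subunit 4. None of the 8 shares passed the exact permutation test, with adjusted p from 0.686 to 0.857, and the smallest p that 4 against 4 libraries can give is 0.0286. Markers of striated muscle summed to 0 in 5 libraries and to at most 2.26 TPM, in aged replicate 1, where Mb made 2.05 TPM. That library was not one of high Cox6a2, but it had the highest aged values of Cox7a1 (164 TPM) and Cox8b (37.2 TPM). The part of muscle tissue in these values was not tested.

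Cox8b, the form of subunit 8 known from heart, muscle and brown fat (chr7:140898945-140900446), had the largest standard error of the tested members. It was listed at 24.3, 46.2, 1.50 and 0.882 TPM in the adult and 37.2, 23.8, 0 and 0.391 TPM in the aged group. Its share of the subunit 8 pair was 2.37, 4.94, 0.280 and 0.127 percent in adult and 6.53, 3.97, 0 and 0.0785 percent in aged libraries, so that in aged replicate 1 it was above the share of Cox7a1 in aged replicates 3 and 4. Replicates 1 and 2 of both groups were high and replicates 3 and 4 of both groups near 0, so age did not separate the values (log2 fold change -0.52, SE 1.32). The 4 libraries with Cox8b at 23.8 TPM or more were the 4 with Y-linked genes near 0, and the 4 with Cox8b at 1.50 TPM or less were the 4 with Y-linked transcripts. Cox8a, the general form, gave 999, 887, 533 and 696 TPM in the adult and 533, 575, 407 and 498 TPM in the aged group. It overlapped between those 4 and 4 libraries, although replicates 1 and 2 were the higher in each age group. Its log2 fold change with age was -0.60 (SE 0.25, limma adjusted p = 1.00).

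Brown adipocyte markers did not run with Cox8b in the aged libraries. Ucp1, Cidea and Elovl3 summed to 7.16, 6.01, 1.07 and 0.376 TPM in the adult and 0.123, 0.281, 0.322 and 0.252 TPM in the aged group. Adult replicates 1 and 2 had Cox8b together with Ucp1 (5.64 and 4.21 TPM) and Cidea (1.37 and 1.80 TPM). Aged replicates 1 and 2 had Cox8b at 37.2 and 23.8 TPM, with Ucp1 at 0.123 and 0.173 TPM and Cidea at 0 and 0.109 TPM. Elovl3 was listed at 0 in 6 of 8 libraries, adult replicate 2 among them. General adipocyte markers summed to 6.61, 10.9, 1.30 and 1.41 TPM and 2.34, 0.519, 0.336 and 1.17 TPM, with Plin1 at 0 in 7 of 8 libraries. Red cell genes were high in adult replicates 1 and 2 and in aged replicate 1 (6665, 10649 and 14661 TPM) but not in aged replicate 2 (933 TPM). Separation by the level of Y-linked genes was common in these data, with 22.6% of all genes tested not overlapping between the same 4 and 4 libraries. Among the members it held for 4 of 42 (9.52%): Cox8b, Cox6b2, Cox7a2l and Cox5b, each lower where Y-linked transcripts were present. Why the libraries differ so was not tested, and those 4 members were singled out after their values were seen.

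**Figure D4:**
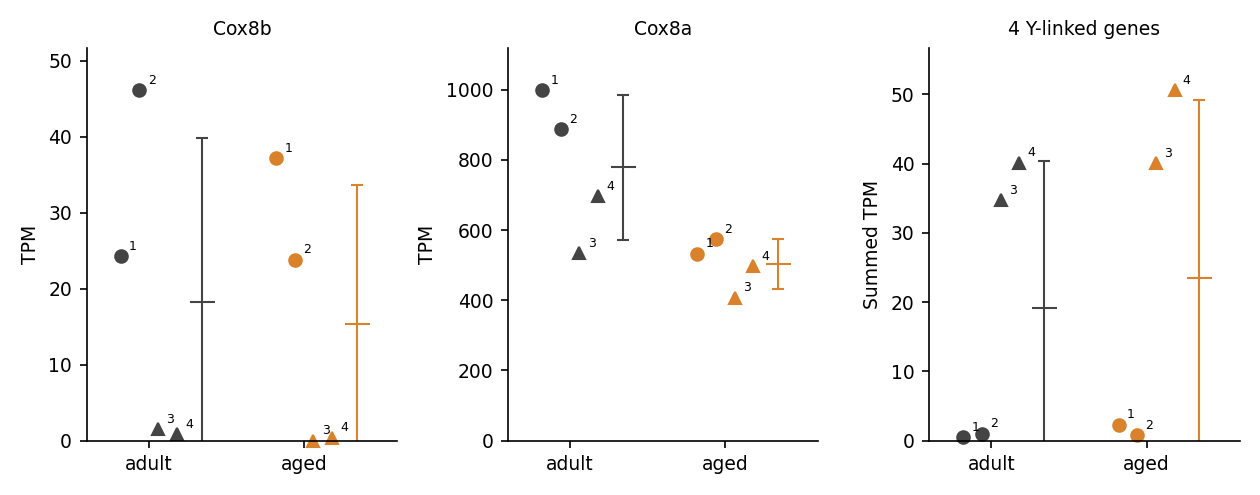
TPM of Cox8b and Cox8a and the summed TPM of the Y-linked genes Ddx3y, Kdm5d, Eif2s3y and Uty in each library (n = 4 per group, numbers are replicates, bars are mean ± SD and are cut at 0). Cox8b is between 23.8 and 46.2 TPM in the circles and at most 1.50 TPM in the triangles, in both age groups.

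No ATP synthase gene passed the test. Of 17 members 16 had a lower mean log2 level in aged kidneys, with a median of -0.36 (-0.019 with quantile normalization) and a range from -0.54 to 0.23. The catalytic beta subunit gene Atp5b gave 2847, 2243, 1489 and 1900.4 TPM in the adult and 1632, 2048, 1325 and 1558 TPM in the aged group (log2 fold change -0.35, SE 0.25). Adult replicate 1 was its highest library and aged replicate 3 its lowest, with the rest overlapping. Atp5c1, the gamma subunit that forms the rotating central stalk, read 805, 953, 743 and 674 TPM and 609, 720.1, 488 and 555 TPM (log2 fold change -0.42, SE 0.22, limma adjusted p = 1.00). The alpha subunit gene Atp5a1 averaged 342 ± 153 and 266 ± 99.0 TPM and the delta subunit gene Atp5d 357 ± 130.0 and 255 ± 69.3 TPM (SD, n = 4).

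Atp5e, the epsilon subunit at the foot of the same stalk, varied widely among the adults. It stood at 1535, 3205, 3223 and 1934 TPM in the adult and 2388, 1472, 1714 and 1325 TPM in the aged group. Adult replicates 2 and 3 were far above the other adults, and the log2 fold change was -0.49 (SE 0.30). Atp5mpl, a small membrane protein of the complex, showed the same order of adult libraries at 1400.0, 2430.0, 2643 and 1597 TPM, with 2064, 1664, 1567 and 1448 TPM in aged ones (log2 fold change -0.22, SE 0.25). The outer stalk genes Atp5f1, Atp5h, Atp5j and Atp5o, which hold the catalytic head still, had log2 fold changes between -0.36 and -0.18. The small membrane subunits Atp5j2, Atp5k and Atp5l lay between -0.39 and -0.13. Atp5s, a factor linked to ATP synthase but not one of its core subunits, was rare at 5.51, 5.51, 0.309 and 2.37 TPM in the adult and 2.93, 4.38, 3.27 and 2.91 TPM in the aged group (log2 fold change 0.23, SE 0.46).

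Subunit c, which forms the rotating ring of the membrane part, is made by 3 genes whose mature protein is the same. Their coding ends are shown to let the transcripts be told apart. The 120 coding bases before the stop codon, from GENCODE on GRCm38, carry in capitals each of the 30 positions at which the 3 genes are not all alike, 26 of them at the last position of a codon.
Atp5g1, chr11:96068852-96075670: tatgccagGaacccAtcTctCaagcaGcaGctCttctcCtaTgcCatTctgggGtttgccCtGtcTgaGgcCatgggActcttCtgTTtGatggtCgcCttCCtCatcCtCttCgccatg
Atp5g2, chr15:102662864-102672352: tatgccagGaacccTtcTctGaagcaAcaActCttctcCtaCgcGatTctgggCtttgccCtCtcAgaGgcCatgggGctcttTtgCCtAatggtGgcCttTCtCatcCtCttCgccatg
Atp5g3, chr2:73908447-73911326: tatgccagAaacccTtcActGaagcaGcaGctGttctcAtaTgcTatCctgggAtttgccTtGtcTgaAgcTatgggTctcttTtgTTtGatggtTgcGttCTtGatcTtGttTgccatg

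Over these bases Atp5g1 was 86.7% identical to Atp5g2 and 82.5% to Atp5g3, and Atp5g2 was 77.5% identical to Atp5g3. The 3 stretches shared no 31-base word with each other. Atp5g3 supplied most of the ring transcript at 1501, 1407, 959 and 983 TPM in the adult and 872, 941, 689 and 784 TPM in the aged group, without overlap (log2 fold change -0.54, SE 0.23, limma adjusted p = 1.00). Atp5g1 gave 901, 852, 437 and 517 TPM and 453, 597, 339.6 and 496 TPM, with adult replicates 1 and 2 well above the rest (log2 fold change -0.48, SE 0.29). Atp5g2 was minor at 25.8, 28.9, 15.2 and 9.06 TPM and 5.38, 17.6, 12.2 and 20.4 TPM, and it is uncertain, since 40.2% of its 31-base words occur in other genes, Gm10175 above all.

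No difference with age was detected in the mix of the 3 genes. Atp5g3 made 64.1% ± 3.04 of the subunit c transcript in the adult and 63.1% ± 3.18 in the aged group (SD, n = 4), Atp5g1 34.9% ± 2.95 and 35.8% ± 2.91, and Atp5g2 1.00% ± 0.281 and 1.07% ± 0.485. Differences in these shares were smaller than the SD between replicates, with exact two-sided permutation p from 0.600 to 0.857 (each 0.857 adjusted over the 8 shares). A share within a library does not depend on the scaling of TPM.

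Members also differed in which library held their highest and lowest value. Adult replicate 2 was the highest library for 22 of 42 members, adult replicate 1 for 10 and adult replicate 3 for 8, and aged replicate 3 was the lowest for 20, aged replicate 4 for 12 and adult replicate 1 for 6. Adult replicates 1 and 3 ordered the members in different ways. Among the 36 members at 100 TPM or more, 14 were higher in adult replicate 1 than in adult replicate 3. Among the long coding sequences, Atp5a1 (1659 coding bases) differed by 1.43, Atp5b (1587) by 0.93 and Uqcrc2 (1359) by 0.64 on the log2 scale, but Atp5f1 (768) differed by -0.16 and Atp5o (639) by -0.15. Among short ones Uqcrh (267) differed by -1.12 and Atp5e (156) by -1.07.

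Across the 36 members, the coding length and the difference between those 2 libraries had a Spearman correlation of 0.64 and, with log2 length, a Pearson correlation of 0.64. These are descriptions across genes of the same 2 libraries, and TPM itself divides by length. A trend with length was not particular to the members. Over 11734 genes tested, the slope of the log2 deviation on log2 median transcript length was 0.041, -0.055, -0.082 and -0.010 in adult libraries. In aged libraries it was -0.0067, 0.056, 0.021 and 0.036, so adult replicate 3 had the lowest slope of all. Short members were also the more abundant ones (Spearman -0.44 between coding length and mean TPM). Of the 8 members with at least 600 coding bases 6 were higher in adult replicate 1, and of the 28 shorter ones 8 were. Those 8 short members were Atp5d (1.36), Atp5g1 (1.04), Cox8a (0.90), Cox6a1 (0.79), Atp5g3 (0.65), Cox5a (0.51), Cox5b (0.47) and Cox7a2l (0.42). Coding length and the age difference had a Spearman correlation of 0.026. The median of the 8 members with at least 600 coding bases minus that of the 28 shorter ones, each centred on its mean over libraries, was 0.37, -0.10, -0.33 and -0.01 in adult and -0.25, 0.19, -0.13 and 0.11 in aged libraries. The cut of 600 was chosen after the values were seen. Adult replicates 1 and 3 had the highest and the lowest of those differences, and comparing these 2 libraries was not planned. Proximal tubule markers, summed, were 12279.5, 7916, 4734 and 7041 TPM in the adult and 4209, 10227, 3437 and 6401 TPM in the aged group, and their part in the pattern was not tested.

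**Figure D5:**
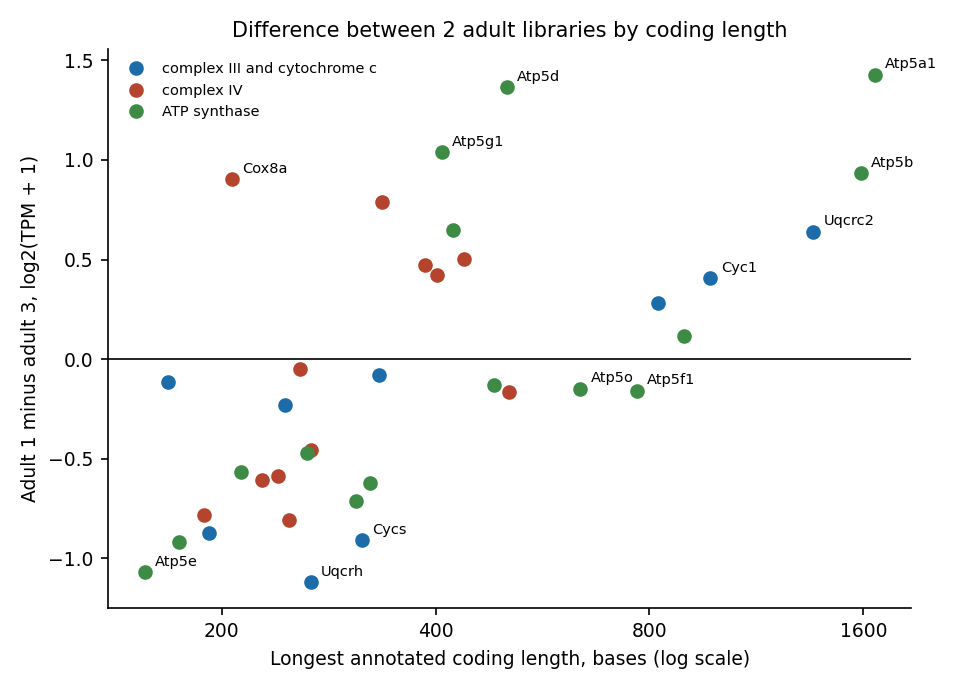
Difference between adult replicates 1 and 3 in log2(TPM + 1) against the longest annotated coding length on a log axis, for the 36 members at 100 TPM or more, coloured by complex. Of the 28 members under 600 bases, 8 lie above 0, the highest being Atp5d at 1.36 and Atp5g1 at 1.04, and of the 8 longer ones 6 do.

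Promoters were compared because most members shared a direction. RefSeq on GRCm38.p6 gave promoters (250 bases before to 50 after the start) for 34 of the 45 members and for 27025 genes in all. Letters were searched on both strands, and matches may overlap. GCGCANGCG, the core of the site of NRF1, a known activator of respiratory genes, occurred in 11 member promoters (32.4%) and in 7.03% of all. CCGGAAG, the core read by ETS factors such as GABPA, occurred in 10 (29.4%) and in 9.93% of all. AAGATGGC, read by YY1, occurred in 3 (8.82%, against 3.19%), TCAAGGTCA, read by estrogen-related receptors, in 1 (2.94%, against 0.466%), and CCAAT in 19 (55.9%, against 41.1%). A match is a run of letters only. The 27025 genes include many under 1 TPM in these kidneys, and shares among genes of like abundance were not computed. Uqcrq, Cyc1 and Cox6a2 are among the members without a promoter. Whether the motifs go with the age difference was not tested.

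Stretches of 4 promoters, each ending 25 bases before the start site, show 2 isoform genes of complex IV with different levels, the 1 abundant gene with a higher aged mean, and the gene with the most negative fold change of complex III. Capitals mark the motifs above.
Cox6a1 promoter, chr5:115348984-115349128, minus strand: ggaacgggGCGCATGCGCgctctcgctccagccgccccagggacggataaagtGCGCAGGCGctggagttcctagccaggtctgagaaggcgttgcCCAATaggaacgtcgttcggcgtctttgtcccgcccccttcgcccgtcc
Cox8b promoter, chr7:140900472-140900616, minus strand: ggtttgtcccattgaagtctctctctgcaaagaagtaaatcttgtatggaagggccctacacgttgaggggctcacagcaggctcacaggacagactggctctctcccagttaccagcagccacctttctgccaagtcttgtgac
Cycs promoter, chr6:50566595-50566739, minus strand: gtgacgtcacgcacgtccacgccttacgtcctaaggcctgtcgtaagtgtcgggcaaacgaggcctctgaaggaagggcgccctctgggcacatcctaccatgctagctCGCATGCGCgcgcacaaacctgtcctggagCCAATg
Uqcr11 promoter, chr10:80406847-80406991, minus strand: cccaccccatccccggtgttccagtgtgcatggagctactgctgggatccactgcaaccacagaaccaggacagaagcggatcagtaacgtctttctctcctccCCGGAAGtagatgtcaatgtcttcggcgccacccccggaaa

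Cox6a1 holds the NRF1 letters and a CCAAT in this stretch, Cycs also holds both, Uqcr11 holds the ETS letters, and Cox8b holds none of the 5 motifs here. Nearer the start than the stretches reach, Uqcr11 also has the NRF1 letters (at -5) and Cox6a1 the ETS letters (at -16). Cox8b has none of the 5 motifs in its whole promoter.

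No gene that assembles or adjoins these complexes passed the test. Of 41 listed factors 40 had a row under the listed symbol. The remaining symbol, Dmac2l, is the RefSeq name of Atp5s, which is a member and is counted there. Of the 40, 39 were tested: 31 were lower (79.5%, beside 65.0% of all genes tested) and 8 higher in aged kidneys, with a median of -0.20. Unadjusted p under 0.05 was seen for 4 (10.3%, beside 3.39% of all genes tested). Coa7, an assembly factor of complex IV, gave 26.1, 21.0, 23.9 and 22.9 TPM in the adult and 6.20, 19.7, 12.7 and 13.9 TPM in the aged group (log2 fold change -0.89, SE 0.32). Coa6, which acts on the copper site of complex IV, gave 61.4, 43.4, 55.2 and 50.2 TPM in the adult and 55.3, 26.9, 26.9 and 22.2 TPM in the aged group. Uqcc3, a complex III assembly factor, gave 59.9, 60.2, 47.2 and 44.8 TPM and 40.7, 45.8, 25.8 and 30.6 TPM. The groups were apart for Coa7, overlapped for Coa6 through aged replicate 1 and for Uqcc3 through aged replicate 2. Ndufa4, a complex IV subunit by later work, was listed at 0, 6.56, 8.02 and 0 TPM in the adult and 9.89, 5.51, 18.5 and 6.15 TPM in the aged group. That is far below Cox5a and Cox6c, with means of 672 and 2293 TPM over all libraries. The 31-base words that Ndufa4 shares with other genes were not counted, so its value is uncertain. Coa7, Coa6, Uqcc3 and Ndufa4 are named because of their p and so after their values were seen.

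Atpif1 and Usmg5 belong with ATP synthase but carry names outside the rule. Atpif1, the inhibitor that stops ATP hydrolysis, averaged 1256 ± 323 TPM in the adult and 954 ± 307 TPM in the aged group (log2 fold change -0.42, SE 0.28). Usmg5, a small membrane subunit, read 1569, 3358, 4654 and 2208 TPM and 3606, 2588, 3404 and 2787 TPM (log2 fold change 0.18, SE 0.32), with the lowest and the highest value both among adult libraries. Of the members, 15 share more than 10% of their 31-base words with other genes, mostly pseudogenes, and 0 share over 50%, so values of those 15 are less certain than the rest.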

How the data were processed

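The authors deposited TPM, a level per transcript length on a fixed total, in 1 table of 30153 mouse genes and 8 libraries. GRCm38, kallisto and DESeq2 are named in the submitters' processing notes, and which step made the TPM is not given in the sources used here. Per the labels' protocols, a Qiagen kit gave the RNA, which was made into stranded libraries after capture of polyadenylated RNA. TPM keeps no depth. Of the identifiers 98.6% matched a symbol, and 7 that shared a symbol were summed with it. Positions, coding lengths and transcripts came from GENCODE M21. The 4 aged libraries were compared with the 4 adult ones by limma 3.58.1 (R 4.3.3, with trend) on log2(TPM + 1), pseudocount 1, for genes with a mean of at least 1 TPM, with the Benjamini-Hochberg threshold at 0.05. Shares were tested by exact two-sided permutation over 70 assignments. The fit was checked on simulated data with independent noise for each gene. Those data held no shifts shared by the genes of a library, so the check does not cover such shifts. No score or set of members was tested. Values in every library are given for the 10 members with the smallest p, the 3 most abundant per complex, those without overlap, those with a positive fold change and the isoform pairs. Alternatives were other pseudocounts, filters, scalings and limma options, a replicate block, the Y-linked level and each library left out. Members and lists were chosen with earlier results of these data known.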

Additional observations from a re-analysis of the deposited data

Results flagged for a closer look

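In 84 groups of 4 libraries checked, 3 held a library whose gap to its neighbour took more of the whole range than the 95% critical value of Dixon's test allows. Chance gives about 1 in 20 groups. Adult replicate 1 had Cox6a2 at 2.45 TPM while the other adults lay between 8.08 and 8.52 TPM. Aged replicate 1 had Cox7c at 1797 TPM while the other aged libraries lay between 1423 and 1476 TPM. Aged replicate 3 had a Cox6a2 share of 0.671% of the pair with Cox6a1, against 0.289% to 0.351% in the other aged libraries.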

How the results depend on the processing

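The number of genes past the adjusted threshold was 1 with array weights, 3 in libraries without and 16 in libraries with Y-linked transcripts, 0 to 2 with 1 library left out, and 0 in the other alternatives. No member was called in any of the 24. The members' median log2 fold change was -0.037 after quantile normalization and -0.092 when mitochondrial genes were removed. By complex the same pair of values was -0.019 and -0.074 for ATP synthase, -0.066 and -0.16 for complex III with cytochrome c, and -0.027 and -0.095 for complex IV. With the length trend removed the median was -0.20 for all members. By complex it was then -0.19 for ATP synthase, -0.27 for complex III with cytochrome c and -0.20 for complex IV. That trend used the median annotated transcript length, which for Atp5a1 (816) is below its longest coding length (1659). With quantile normalization 25 members were lower. With 1 library left out the members' median ran from -0.45 to -0.26 and the number lower from 38 to 41. Of 27 named members tested, 15 were lower and 1, Cycs, was higher in every alternative that tested them. Cox6a2, among the 15, was not tested with the filters at 5 and 100 TPM.

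With quantile normalization the sign turned for 14 of the 42 members, 6 of them among the 27 named: Atp5mpl (0.15), Cox6b1 (0.020), Cox6c (0.043), Cox7a2 (0.18), Cox7b (0.031) and Cox7c (0.078). With mitochondrial genes removed it turned for 12, 5 of them named: Atp5mpl (0.068), Cox6c (0.063), Cox7a2 (0.094), Cox7c (0.0031) and Uqcrh (0.040). In libraries without Y-linked transcripts it turned for 6, 5 of them named: Atp5mpl (0.0066), Atp5s (-0.50), Cox6b2 (-0.012), Cox6c (0.030) and Uqcrh (0.11), and in those with them for Atp5g2 (0.40). With array weights it turned for Atp5g2 (0.080) and Cox8b (0.59). The causes were not tested.

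With 1 library left out, Atp5s ran from -0.27 to 0.50, Cox6b2 from -0.20 to 0.21 and Cox8b from -1.41 to 0.34. Besides these 3, which turned, 11 of the 27 named members moved by over 1.5 times with the same sign. Without adult replicate 1 and without adult replicate 3, in that order, the values were -0.19 and -0.50 for Atp5b, -0.38 and -0.074 for Atp5mpl, -0.35 and -0.079 for Cox7a2, -0.44 and -0.17 for Cox7c and -0.46 and -0.086 for Uqcrh. The lowest and highest values were -0.79 and -0.13 for Atp5g2, -0.53 and -0.24 for Cox6a1, -0.35 and -0.14 for Cox6c, -0.86 and -0.37 for Cox7a1, -0.48 and -0.18 for Cox7b and 0.22 and 0.61 for Cycs. The age differences in share, in percentage points, ran from -3.08 to -1.27 for Cox7a1, -0.50 to -0.19 for Cox6a2, 0.0903 to 0.43 for Cox6b2, 0.0048 to 0.018 for Cox4i2, -0.58 to 1.72 for Cox8b, -0.41 to 1.95 for Atp5g1, -0.0955 to 0.293 for Atp5g2 and -1.99 to 0.31 for Atp5g3. Leaving out libraries where an isoform pair summed to under 1 TPM had nothing to leave out, since the lowest sum was 407 TPM.

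With the replicate number as a block 0 genes and 0 members were called, and 9 members had an unadjusted limma p under 0.05. Same-numbered libraries deviated together with correlations of 0.038, 0.181, 0.486 and 0.415 for replicates 1 to 4, so the numbers were not taken as a pairing. Adult replicates 1 and 2 each correlated best with the other's number. TPM gives no depth, so what depth limits could not be stated.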
